A study of Mus musculus with 12 samples.

Results

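The TCA cycle and fatty acid oxidation genes described here are 34 mouse genes of mitochondrial fuel use, listed by gene symbol, out of 52636 gene identifiers counted in paw joints. They comprise 4 subunits of the pyruvate dehydrogenase complex, 2 pyruvate dehydrogenase kinases, 11 TCA cycle enzymes or subunits, 3 parts of the carnitine shuttle, 4 acyl-CoA dehydrogenases, 6 further enzymes of fatty acid oxidation, 3 electron transfer genes and the coactivator gene Ppargc1a. All 34 had enough counts to be tested, among 16674 tested genes.

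The study gave mice arthritis by transfer of K/BxN serum, whose antibodies cause joint inflammation, and asked what an agonistic antibody to SIRPa, an inhibitory receptor of myeloid cells, did to the joint. Naive mice received no serum but did receive anti-gp120, a control antibody (naive group). Serum-transferred mice received anti-gp120 (control group) or the anti-SIRPa antibody 6F2 (anti-SIRPa group), and joints were taken at day 7 after serum. Each group held 4 mice with 1 RNA library per mouse, and the replicate numbers only name mice; strain, sex, age and antibody doses were not in the labels.

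As background, the pyruvate dehydrogenase complex turns pyruvate from glycolysis into acetyl-CoA, and the TCA cycle oxidizes acetyl-CoA to feed the respiratory chain. Fatty acids enter mitochondria through the carnitine shuttle and are shortened by repeated cycles of oxidation that also end in acetyl-CoA. Both routes are rich in skeletal muscle and heart, and PGC-1α, the product of Ppargc1a, is a coactivator that works with estrogen-related receptors and nuclear respiratory factors on many of their genes.

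The paw libraries held much muscle RNA. A list of 26 muscle genes, of which the titin gene Ttn and the myosin gene Myh1 were the most abundant, took between 23.8% and 33.2% of the counts in the naive group, between 16.4% and 28.2% in the control group and between 18.2% and 28.9% in the anti-SIRPa group. The joint label was matched by Prg4, the lubricin gene of the joint lining, at 5475 to 10160 CPM (counts scaled to a common library size) in every library. Libraries held between 6893969 and 17597920 counts, and Ucp1, the defining gene of brown fat, was at 0 in 7 of the 12 libraries and at most at 0.361 CPM. In bulk tissue, fewer cells of a type and less RNA per cell cannot be told apart.

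Promoter sequences of 30 of the 34 members were found in a RefSeq table for GRCm38.p6, each window running from 250 bases before to 50 after an annotated start. They were searched on both strands for AAGGTCA and TCAAGGTCA, the core and extended letters bound by estrogen-related receptors, and for GCATGCGC, the core of the nuclear respiratory factor site. The longer receptor motif contains the shorter one. The nuclear respiratory factor core stood in the windows of 4 of 30 members (13.3%), Ogdh, Acadm, Etfa and Etfdh, against 824 of all 27025 genes with a window (3.05%). AAGGTCA stood in 2 of 30 members (6.67%) against 1454 of 27025 genes (5.38%), and TCAAGGTCA in 0 of 30 against 126 (0.466%). Shown are the window of Dlat, the member with the smallest p in the first comparison, with no match, that of Acadm with 1 match to each core, and that of Etfdh, where the nuclear respiratory factor core matched on both strands in one stretch. Capitals mark the matches, which describe letters and not bound sites. The windows lie on the minus strand at chr9:50659731-50660030 for Dlat, chr3:153944594-153944893 for Acadm and chr3:79628718-79629017 for Etfdh.
Dlat: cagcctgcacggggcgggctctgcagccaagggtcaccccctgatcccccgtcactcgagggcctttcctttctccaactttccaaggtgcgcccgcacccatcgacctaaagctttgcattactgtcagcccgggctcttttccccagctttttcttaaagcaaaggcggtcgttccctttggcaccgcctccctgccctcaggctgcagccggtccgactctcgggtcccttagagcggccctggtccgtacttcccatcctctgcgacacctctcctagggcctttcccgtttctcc
Acadm: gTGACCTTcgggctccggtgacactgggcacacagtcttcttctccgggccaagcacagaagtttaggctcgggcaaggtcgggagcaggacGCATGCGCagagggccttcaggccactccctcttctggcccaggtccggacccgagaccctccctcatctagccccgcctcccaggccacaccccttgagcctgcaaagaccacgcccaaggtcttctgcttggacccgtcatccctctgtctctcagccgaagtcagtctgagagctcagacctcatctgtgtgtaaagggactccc
Etfdh: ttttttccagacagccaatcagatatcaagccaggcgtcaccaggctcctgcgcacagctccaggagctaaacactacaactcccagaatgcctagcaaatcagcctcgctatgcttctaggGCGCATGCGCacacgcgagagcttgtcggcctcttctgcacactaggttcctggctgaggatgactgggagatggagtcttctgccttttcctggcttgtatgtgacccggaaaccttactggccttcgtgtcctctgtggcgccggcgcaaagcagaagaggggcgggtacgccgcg

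The first comparison set the control group against the naive group, that is, arthritic joints against joints without arthritis. In arthritis 6 of the 34 members fell: Pdha1, Dlat and Dld of the pyruvate dehydrogenase complex, Idh3a and Mdh2 of the TCA cycle, and Ppargc1a, by edgeR's quasi-likelihood test with adjusted p under 0.05. No member rose. Of all tested genes 4.45% fell and 5.87% rose by the same rule. The median log2 fold change of the 34 members was -0.45, with 30 below 0 and 4 above, while the median of all tested genes was 0.03 with 47.4% below 0. In 4 members, Pdha1, Dlat, Idh3a and Dlst, every control mouse lay below every naive mouse, as was so for 6.47% of all tested genes. The 15 pyruvate dehydrogenase and TCA genes had a median of -0.64 with all 15 below 0 and 5 called, and the 16 carnitine shuttle, oxidation and electron transfer genes had a median of -0.30 with 13 below 0 and none called; with libraries scaled by muscle genes, described further on, these medians were -0.18 and 0.17. The difference between these medians was not tested.

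**Figure D1:**
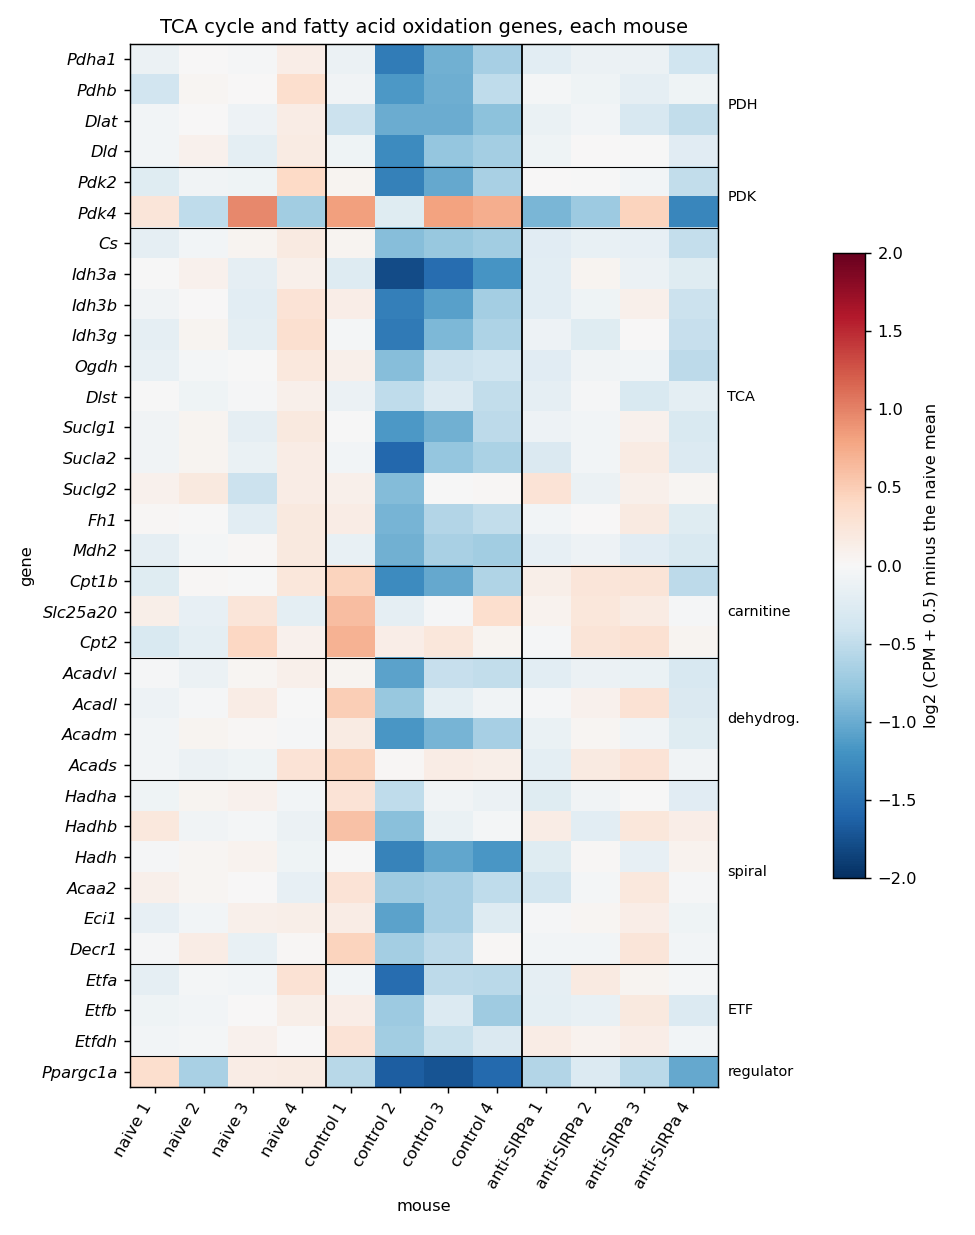
Rows are the 34 members ordered by role and columns the 12 mice of the naive, control and anti-SIRPa groups; colour gives the difference of log2 CPM from the mean of the 4 naive mice. Controls 2, 3 and 4 are below the naive mean for most members, and control 1 is above the other 3 controls in each of the 34 members.

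Within the control group the 4 mice differed. Control 1 had the highest level of the 4 controls for 34 of 34 members. In control 2, 30 members lay below the lowest naive mouse, in control 3 28 and in control 4 26, but in control 1 only 4 did, and 13 members of control 1 lay above the highest naive mouse. Those 13 were fatty acid oxidation genes, among them Cpt1b, Cpt2, Acadl, Acads and Etfdh. The shares of all tested genes outside the naive range in each mouse, or highest in control 1, were not taken. These counts thus describe the members only. Without control 1, 25 members fell and none rose, with a median log2 fold change of -0.73, and with it 6 fell. The counts over all genes grew too, to 2187 lower and 2507 higher of 17271 tested, from 742 and 979 with control 1. Leaving out naive 4, control 2, control 3 or control 4 left 1 member called in each fit, Dlat, and between 205 and 296 genes lower.

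The pyruvate dehydrogenase complex was the role group with the most called members, 3 of 4. Of the 12 fits that left out 1 mouse, Pdha1 was called in only 2 and Dld in only 1. Dlat, at chr9:50634633-50659780, encodes the acetyltransferase core of the complex. Its level in naive mice 1 to 4 was 99.3, 103, 96.7 and 115 CPM, in control mice 76.2, 51.8, 51.7 and 58.3 CPM, and in anti-SIRPa mice 94.2, 99.5, 82.3 and 73.2 CPM. All 4 controls lay below all 4 naive mice, and anti-SIRPa 4 was the only treated mouse below control 1. The log2 fold change against naive was -0.80 ± 0.14 (SE; edgeR adjusted p = 0.00917, n = 4 per group), and it was called in all 12 fits that left out 1 mouse.

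Pdha1, at chrX:160122209-160138413, encodes the catalytic subunit that the kinases phosphorylate. Its naive levels were 327, 355, 348 and 388 CPM, against 324, 134, 182 and 224 CPM in the controls. Control 1 lay just under the lowest naive mouse, and the other 3 controls lay far under it. The log2 fold change was -0.71 ± 0.21 (edgeR adjusted p = 0.0461). Of the Pdha1 transcript 18.5% matched the opposite-strand neighbour Map3k15, so that reads there may be shared. Map3k15 held 216 counts over all libraries against 50422 for Pdha1. Dld, which encodes the dihydrolipoamide dehydrogenase shared by the pyruvate and 2-oxoglutarate dehydrogenase complexes, stood at 127, 140, 115 and 148 CPM in naive mice and at 125, 54.8, 77.1 and 82.0 CPM in controls, where control 1 lay within the naive range (-0.64 ± 0.19, edgeR adjusted p = 0.0485). Pdhb, the other catalytic subunit, had -0.65 ± 0.22 and did not pass (edgeR adjusted p = 0.0708). Its counts are uncertain, since 71.2% of its transcript matched the pseudogene Gm6123, which held 2264 counts over all libraries against 3348 for Pdhb.

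The kinases that switch the complex off differed from each other. Pdk2 stood at 286, 322, 318 and 443 CPM in naive mice and at 349, 132, 165 and 216 CPM in controls, with a log2 fold change of -0.67 ± 0.26 (edgeR adjusted p = 0.108). Controls 2, 3 and 4 lay under every naive mouse and control 1 lay inside the naive range. Pdk4, the kinase induced by fasting and by fatty acids, varied widely within the naive group, at 123, 72.8, 202 and 63.7 CPM, and stood at 182, 87.2, 181 and 171 CPM in controls (0.43 ± 0.46, edgeR adjusted p = 0.574). It was 1 of the 4 members with a value above 0.

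All 11 TCA members were lower on average in the controls than in naive mice, and 2 passed the test. Idh3a, at chr9:54586334-54604661, encodes the catalytic subunit of the NAD-dependent isocitrate dehydrogenase. Its naive levels were 247, 264, 219 and 268 CPM, its control levels 208, 71.5, 86.2 and 110 CPM, and its anti-SIRPa levels 215, 259, 228 and 210 CPM. The 3 groups thus left control 1 just under both other groups and controls 2, 3 and 4 far under them. The log2 fold change against naive was -1.07 ± 0.26 (edgeR adjusted p = 0.0257), the most negative among the enzymes of the list, and it was called in 6 of the 12 fits that left out 1 mouse.

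Mdh2, at chr5:135778480-135790398, encodes mitochondrial malate dehydrogenase and had the highest level per length of the 34 members in naive mice (134 CPM per kilobase of transcript, against 108 for Pdk2). It stood at 419, 462, 485 and 543 CPM in naive mice and at 428, 243, 304 and 293 CPM in controls. Control 1 overlapped the naive range and the other controls did not (-0.59 ± 0.16, edgeR adjusted p = 0.0383). Mdh2 was called in 2 of the 12 fits that left out 1 mouse. Dlst, the acyltransferase of the 2-oxoglutarate dehydrogenase complex, stood at 157, 149, 155 and 170 CPM in naive mice and at 146, 111, 131 and 111 CPM in controls. Its groups did not overlap, but the difference was small and not called (-0.34 ± 0.12, edgeR adjusted p = 0.0742). The other 8, the citrate synthase gene Cs, Idh3b and Idh3g, Ogdh, the succinyl-CoA ligase genes Suclg1, Sucla2 and Suclg2, and the fumarase gene Fh1, ranged from -0.67 (Idh3g) to -0.17 (Suclg2) with edgeR adjusted p between 0.0747 and 0.683. Suclg2 is uncertain, since 38.7% of its transcript matched the pseudogene Gm15163.

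**Figure D2:**
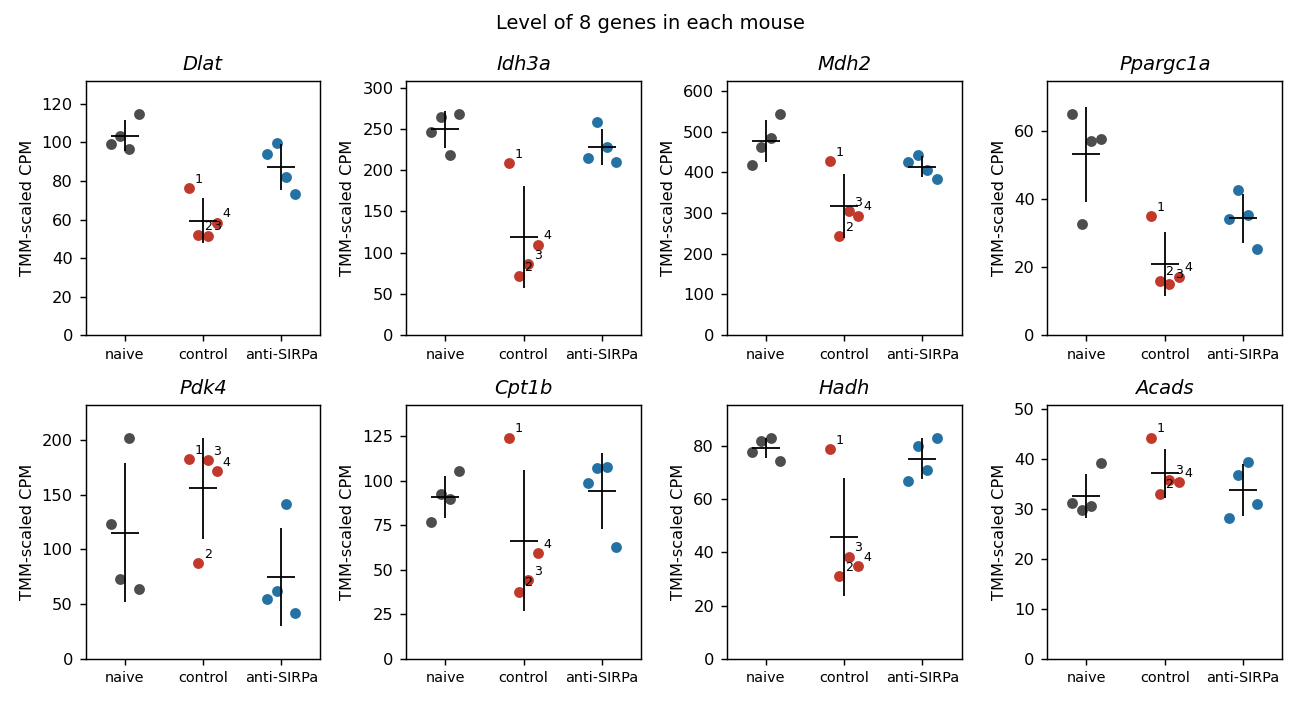
Each panel is 1 member, each point 1 mouse, the vertical axis TMM-scaled CPM from 0 and the horizontal axis the group; lines give the mean and SD of 4 mice, and the control mice carry their replicate numbers. Control 1 sits above the other 3 controls in each panel, and for Idh3a at 208 CPM against 71.5 to 110 CPM.

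None of the 16 fatty acid oxidation members was called in arthritis in the edgeR fit over all 12 mice with TMM scaling. Among the 34 members 19 had an unadjusted p under 0.05 in this comparison, as did 4708 of the 16674 tested genes. Hadh, the 3-hydroxyacyl-CoA dehydrogenase of medium and short chains, came closest of the oxidation genes. Hadh stood at 77.9, 81.7, 83.0 and 74.4 CPM in naive mice and at 78.7, 31.1, 38.4 and 34.9 CPM in controls. Control 1 lay in the middle of the naive mice, whereas the other controls had less than any naive mouse (-0.79 ± 0.24, edgeR adjusted p = 0.05003, just above the threshold). Hadh was called lower with DESeq2, with limma-voom, and with edgeR under DESeq2 or upper-quartile size factors or a filter of 1 CPM in 4 libraries. Without control 1, 9 of the 16 were called lower, as were 2187 of all 17271 tested genes.

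In the carnitine shuttle, Cpt1b encodes the muscle form of the outer-membrane carnitine palmitoyltransferase, the rate-limiting entry step. It stood at 76.8, 92.4, 89.8 and 106 CPM in naive mice and at 124, 37.7, 44.2 and 59.4 CPM in controls, so that control 1 was above and the other 3 were below all naive mice (-0.46 ± 0.33, edgeR adjusted p = 0.385). Of the Cpt1b transcript 94.8% matched the read-through gene Gm44502, which had no row in the deposited counts, so whether reads were shared is not known. Cpt2, the inner-membrane transferase, stood at 17.4, 18.8, 29.3 and 23.2 CPM in naive mice and at 35.6, 23.9, 25.6 and 22.7 CPM in controls (0.28 ± 0.18, edgeR adjusted p = 0.328). Slc25a20, the carnitine-acylcarnitine carrier, stood at 20.2, 16.4, 22.1 and 16.02 CPM and at 28.7, 16.3, 18.2 and 23.5 CPM in the same groups (0.22 ± 0.18, edgeR adjusted p = 0.443). Both genes had values above 0, unlike most of the list.

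Of the acyl-CoA dehydrogenases, which act on fatty acids of different chain length, Acadm for medium chains had the smallest p. It stood at 68.9, 74.0, 72.4 and 69.8 CPM in naive mice and at 80.0, 31.4, 37.3 and 44.9 CPM in controls (-0.56 ± 0.22, edgeR adjusted p = 0.119). Here the naive mice were close together, control 1 was above them and the other 3 controls were well below. Acads, for short chains, was the fourth member above 0, at 31.1, 29.7, 30.5 and 39.2 CPM in naive mice and 44.3, 33.1, 35.9 and 35.4 CPM in controls (0.19 ± 0.14, edgeR adjusted p = 0.405). Acadvl for very long chains had -0.44 ± 0.18 (edgeR adjusted p = 0.119) and Acadl for long chains -0.07 (edgeR adjusted p = 0.865); 42.9% of the Acadvl exon bases overlap Dvl2 on the opposite strand.

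The trifunctional protein genes Hadha and Hadhb had values of -0.09 and -0.01. Hadhb is uncertain: it stood at 1.84 to 2.43 CPM in naive mice against 176 to 200 CPM for Hadha, and 69.7% of its transcript matched the pseudogenes Gm13910 and Gm9108, of which Gm13910 held 960 counts over all libraries against 356 for Hadhb. The thiolase gene Acaa2 and the genes Eci1 and Decr1, whose enzymes handle double bonds of unsaturated fatty acids, ranged from -0.39 (Eci1) to -0.11 (Decr1) and were not called. Electrons from the acyl-CoA dehydrogenases pass through the electron transfer flavoprotein to the respiratory chain. Its subunit gene Etfa stood at 28.8, 31.9, 31.5 and 40.2 CPM in naive mice and at 31.6, 11.03, 22.7 and 22.5 CPM in controls (-0.58 ± 0.23, edgeR adjusted p = 0.119). Control 1 overlapped the naive mice and the other 3 did not. Etfb had -0.36 and the oxidoreductase gene Etfdh -0.25, neither called. Of the Etfb transcript 70.1% matched the overlapping gene Gm45233, which held 0 counts over all libraries.

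Ppargc1a, at chr5:51454250-51567726, had the largest change of the 34 members. It stood at 65.1, 32.8, 57.3 and 57.8 CPM in naive mice, at 35.0, 16.02, 15.2 and 17.3 CPM in controls and at 34.2, 42.6, 35.3 and 25.3 CPM in anti-SIRPa mice. Control 1 overlapped naive 2, and the other controls lay under all mice of both other groups. The log2 fold change against naive was -1.35 ± 0.29 (edgeR adjusted p = 0.0177), called in 8 of the 12 fits that left out 1 mouse.

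**Figure D3:**
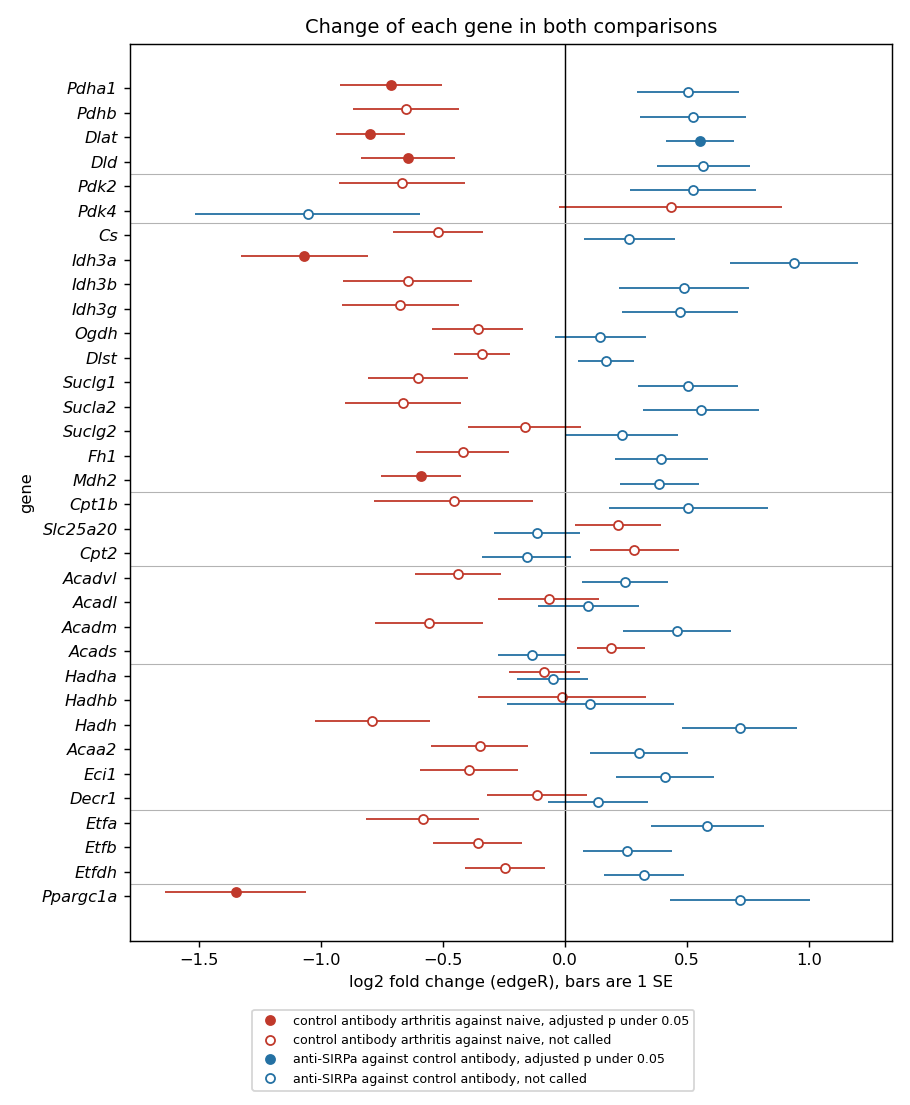
Log2 fold change of each member with its standard error (horizontal bars) for control against naive and for anti-SIRPa against control; filled points passed edgeR's adjusted p of 0.05. Of the 34 members 30 lie below 0 in the first comparison and 29 above 0 in the second, with 6 and 1 past the threshold.

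The second comparison set anti-SIRPa against control-antibody treatment in arthritic mice. It shares the 4 control mice with the first comparison, so that a low control value moves both, and the values are given side by side without counting their opposite signs as a result. Dlat rose (0.55 ± 0.14, edgeR adjusted p = 0.0490) and no other member passed in either direction. Of all tested genes 1.59% rose and 1.7% fell. The median of the 34 members was 0.39, with 29 above 0 and 5 below, against -0.03 for all tested genes with 47% above 0. The 15 pyruvate dehydrogenase and TCA genes were all above 0 with a median of 0.49, and of the 16 fatty acid genes 12 were above 0 with a median of 0.25 (0.28 and 0.02 with libraries scaled by muscle genes).

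Idh3a was the one member whose anti-SIRPa mice all lay above all control mice, as was so for 5.18% of tested genes, though by the narrow margin of 210 against 208 CPM (0.94 ± 0.26, edgeR adjusted p = 0.0630). Hadh stood at 66.9, 80.0, 70.9 and 83.0 CPM in anti-SIRPa mice, 2 of them below control 1 at 78.7 CPM (0.71 ± 0.24, edgeR adjusted p = 0.0944). Ppargc1a had 0.72 ± 0.29 (edgeR adjusted p = 0.152), with anti-SIRPa 1 and 4 below control 1. In these 3 genes all treated mice were above controls 2, 3 and 4.

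The 5 members with values below 0 were Pdk4, Slc25a20, Cpt2, Acads and Hadha. Pdk4 stood at 54.8, 62.3, 141 and 41.8 CPM in anti-SIRPa mice, with 3 of the 4 below all controls and anti-SIRPa 3 among them (-1.05 ± 0.46, unadjusted p = 0.044, edgeR adjusted p = 0.194). The other 4 ranged from -0.16 (Cpt2) to -0.05 (Hadha). Without control 1, 23 members rose, with a median of 0.63, while 1912 of 17271 tested genes rose and 2064 fell, against 265 and 283 with control 1. Dlat was then at 0.70 (edgeR adjusted p = 0.00109) and Idh3a at 1.36 (edgeR adjusted p = 4.3e-05). Leaving out naive 4 or anti-SIRPa 4 kept 1 member called, and each of the other 9 mice left out gave 0. In 4 of those 9 fits, without control 3, control 4, anti-SIRPa 1 or anti-SIRPa 2, at most 1 gene of all those tested was called.

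The third comparison set anti-SIRPa-treated arthritic mice against naive mice. edgeR called 0 of the 34 members and 0% of the 16674 tested genes in either direction; 1 member, Ppargc1a, and 675 genes had an unadjusted p under 0.05, and DESeq2 called 20 genes, none of them a member. The median of the members was -0.10 (range -0.63 to 0.13), with 10 above 0 and 24 below, and 0.14 with libraries scaled by muscle genes. Ppargc1a had -0.63 ± 0.28 (unadjusted p = 0.044), with naive 2 the lowest naive mouse at 32.8 CPM, below 3 of the 4 anti-SIRPa mice. In Acadvl all anti-SIRPa mice (97.8 to 113.2 CPM) lay below all naive mice (113.4 to 131.7 CPM), as was so for 1.85% of tested genes, with a log2 fold change of -0.20. A p above the threshold does not show that the levels are the same.

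The mice of the anti-SIRPa group also differed, and here too the share of all tested genes outside the naive range was not taken. In anti-SIRPa 4, 22 members lay below the lowest naive mouse and 1 above the highest, in anti-SIRPa 1 16 and 2, in anti-SIRPa 3 7 and 10, and in anti-SIRPa 2 5 and 1. Muscle RNA differed between the mice as well, and its part in these counts was not tested. Relative to the mean of the naive mice, the mean log2 difference of the muscle list was -0.09, -1.39, -1.17 and -0.71 in controls 1 to 4 and -0.09, -0.03, -0.06 and -0.58 in anti-SIRPa mice 1 to 4. The pyruvate dehydrogenase and TCA genes had -0.05, -1.14, -0.78 and -0.60 in the same controls, and -0.13, -0.07, -0.06 and -0.31 in the same anti-SIRPa mice. The fatty acid genes had 0.31, -0.77, -0.41 and -0.31 in controls, and -0.09, 0.04, 0.13 and -0.12 in anti-SIRPa mice. The 4 libraries lowest in the muscle list, controls 2, 3 and 4 and anti-SIRPa 4, were also the 4 lowest in both member groups.

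**Figure D4:**
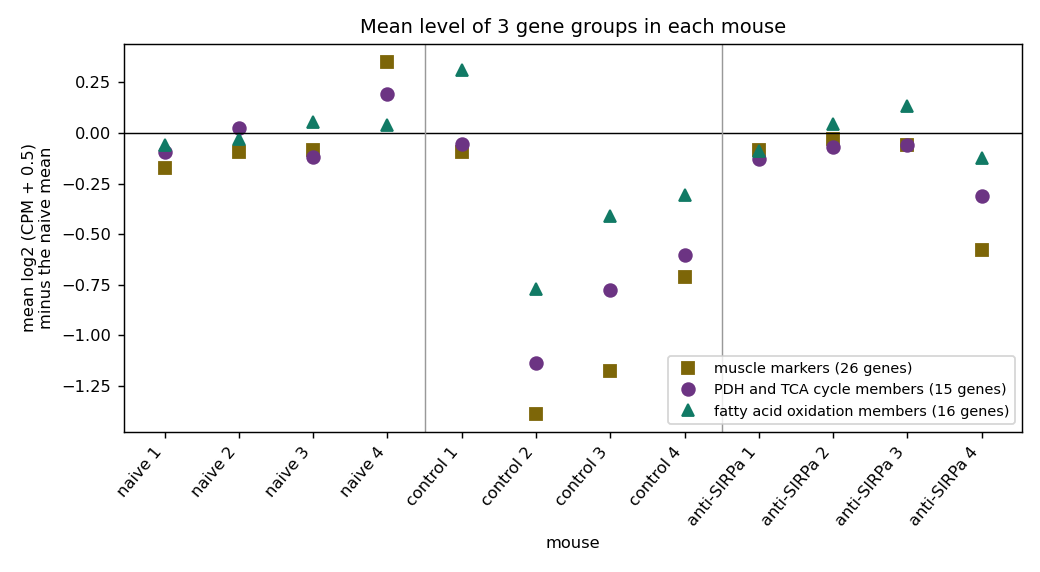
For each of the 12 mice, the mean difference of log2 CPM from the naive mean over the 26 muscle genes, the 15 pyruvate dehydrogenase and TCA genes and the 16 fatty acid genes. Control 2 is lowest in all 3 lists (-1.39, -1.14 and -0.77), and control 1 is near 0 in the first 2 and at 0.31 in the third.

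Of the 26 muscle genes 6 fell in arthritis and none rose, with a median log2 fold change of -0.58 and 25 below 0. In the anti-SIRPa comparison 3 rose (Myl2, Actn2 and Tnni1), with a median of 0.52. Their summed level was 234400 to 396900 CPM in naive, 148900 to 298100 CPM in control and 159900 to 302000 CPM in anti-SIRPa mice. With libraries scaled by the muscle list in place of all genes, 0 members were called in each comparison. Of all 16674 tested genes, 865 were then higher and 64 lower in arthritis. In the anti-SIRPa comparison 8 were higher and 6 lower, and against naive 0 were called. The arthritis median of all tested genes then moved from 0.03 to 0.56, that of the members from -0.45 to -0.01, with 17 above 0 and 17 below, and those of the 15 pyruvate dehydrogenase and TCA genes and the 16 fatty acid genes to -0.18 and 0.17. Under that scaling Ppargc1a stood at -0.93 (edgeR adjusted p = 0.0570), Idh3a at -0.68 (0.0813), Dlat at -0.30 (0.353) and Cpt2 at 0.80 (0.0878). This scaling moved the medians of all genes and of the members up by a like amount. With the level of the muscle list as a covariate the members' medians were 0.03 in arthritis and -0.02 in the anti-SIRPa comparison, and 0 were called. Of all 16674 tested genes that fit called 23 higher and 20 lower in arthritis and 0 in the anti-SIRPa comparison.

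Other cell types moved with the groups as well, and their part in the members' values was not tested. Of 12 macrophage genes 9 rose in arthritis and none fell. Their summed level was 526.8 to 564.7 CPM in naive and 649.9 to 824.1 CPM in anti-SIRPa mice. In controls 1 to 4 it was 521.5, 1085, 1098 and 1037 CPM. Lyz2 stood at 140 to 180 CPM in naive and 198 to 347 CPM in control mice. Of 11 fat cell genes 10 were tested and none was called in arthritis, while Plin1 and Adipoq rose in the anti-SIRPa comparison. Their summed level was 390.8 to 441.7, 152.6 to 442.5 and 432.5 to 615.8 CPM. Gm26917, a noncoding gene not used as a marker of a cell type, took 1.63% to 2.39% of counts in naive mice. It took 2.89%, 8.28%, 6.82% and 4.55% in controls 1 to 4, and 1.68% to 2.52% in anti-SIRPa mice. It was called higher in arthritis and lower with anti-SIRPa relative to control. Control 2, where it was highest, was also the library with the fewest counts, 6893969. Of 10 neutrophil genes 7 were tested and 3 rose in arthritis; their summed level, mostly Mmp9, was 15.6 to 34.6 CPM in naive mice, 26.4, 394.8, 182 and 85.4 CPM in controls 1 to 4, and 23.8 to 63.9 CPM in anti-SIRPa mice. Of 10 fibroblast genes, led by Prg4 and Col1a1, 4 rose and 1 fell, with summed levels of 12800 to 20110 CPM in naive mice, 13180, 47520, 34120 and 33490 CPM in controls 1 to 4 and 15090 to 19570 CPM in anti-SIRPa mice. Control 1 was thus within the naive range in the neutrophil and fibroblast lists and below it in the macrophage list. The other 3 controls were above that range in each of these lists. None of 10 epidermal genes was called; their summed level ran from 37.9 to 14240 CPM in naive, 494.6 to 5167 CPM in control and 40.9 to 19880 CPM in anti-SIRPa mice, where anti-SIRPa 4 was highest. Controls 2 and 4 also held 528 and 226.4 CPM of smell and taste receptor genes against 10.1 to 29.3 CPM elsewhere. Without these 2 libraries 1 of 17336 tested genes was called in the first comparison and 0 in the second, none of them a member, and Dlat stood at -0.72 (edgeR adjusted p = 0.128) in the first.

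Beyond the 34 members, 3 lists of further genes of the same pathways were tested in full. In arthritis 12 genes of these 3 lists fell and none rose, and with anti-SIRPa relative to control 3 rose and none fell. A further list, of 5 ketone genes, was tested too and is not in these counts. The counts thus hold for the 3 lists alone. Of 18 other pyruvate and TCA genes 8 fell, led by Mdh1, the cytosolic malate dehydrogenase (-1.14 ± 0.24, edgeR adjusted p = 0.0146), Sdhb (-0.91 ± 0.20, 0.0176) and Sdhd (-0.58 ± 0.13, 0.0204) of succinate dehydrogenase, and the mitochondrial aspartate aminotransferase gene Got2 (-0.70 ± 0.18, 0.0294). The median of these 18 was -0.56. Mdh1 stood at 237, 235, 223 and 262 CPM in naive mice, 187, 77.4, 76.5 and 93.4 CPM in controls and 206, 212, 197 and 184 CPM in anti-SIRPa mice. As in Idh3a, control 1 stood between the other controls and the naive mice.

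Of 24 other fatty acid genes 1 fell, the fatty acid transporter gene Cd36 (-0.81 ± 0.19, edgeR adjusted p = 0.0201), and the median was -0.10. Cd36 and Lpl, the lipoprotein lipase gene, rose with anti-SIRPa (0.94 ± 0.19, edgeR adjusted p = 0.0289, and 0.86 ± 0.22, edgeR adjusted p = 0.0487). Cd36 stood at 67.5, 71.0, 77.2 and 62.3 CPM in naive mice, 56.9, 24.2, 39.3 and 37.6 CPM in controls and 75.7, 75.8, 77.3 and 74.5 CPM in anti-SIRPa mice, so that every control was below every mouse of the other groups.

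Of 13 other regulators 3 fell in arthritis. Perm1, a muscle gene that acts with PGC-1α and estrogen-related receptors, stood at 103, 113, 125 and 147 CPM in naive mice, 53.6, 28.1, 10.95 and 19.5 CPM in controls and 109, 117.5, 55.7 and 67.0 CPM in anti-SIRPa mice. All controls lay below all other mice (-2.12 ± 0.43, edgeR adjusted p = 0.0176, against naive). The estrogen-related receptor genes Esrrg (-1.07 ± 0.25, edgeR adjusted p = 0.0203) and Esrrb (-1.09 ± 0.33, 0.0495) fell too, and Esrra did not pass (-0.45 ± 0.17, 0.109). Esrrg rose with anti-SIRPa relative to control (1.04 ± 0.25, edgeR adjusted p = 0.0403), and Perm1 did not pass (1.64 ± 0.42, 0.0590).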

How the data were processed

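Libraries from total RNA of paw joints were, per the labels' protocols, made with a kit that keeps strand. The deposited values are whole-number counts of reads per gene, which the authors had not normalized; the build is GRCm38 per the submitters' processing notes. The aligner, counter and strand setting were not given in the sources used here, and overlapping and near-identical genes are uncertain.

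All 34 members were found by symbol. The fit used edgeR 4.0.16 (R 4.3.3): filterByExpr by group, TMM scaling, and a robust quasi-likelihood fit with 1 coefficient per group over 12 libraries, with Benjamini-Hochberg adjustment over 16674 genes at 0.05. The biological coefficient of variation was 0.334. CPM are TMM-scaled; means over gene lists used log2(CPM + 0.5), and fold changes come from the fit, with SE taken as the fold change over the square root of F. The code was tested on simulated data. Depth was 6893969 to 17597920 counts, so that 3 counts equal 0.17 to 0.394 CPM, a floor for counting error only. No 2 libraries of a group agreed within sampling noise (lowest chi-square per gene 8.95). Nothing in the labels pairs the mice. Near-identical transcripts were matched at 95% identity over at least 100 bases.

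The members and all gene lists were chosen with earlier results of these data known. Mouse-level values are given for the member with the smallest p in each role in the first comparison, for members that moved against the rest, and for other called members; of the other pathway lists up to 4 called genes were named. The result of 1 gene of these lists is not reported here. Members outside this rule (Cpt1b, Dlst) and the non-members Lpl, Esrra and Prg4 were named after their values were seen. Alternatives were DESeq2 1.42.0, limma 3.58.1 (voom), other size factors and filters, the muscle list as size factor or covariate, a replicate block, the compared groups alone, and libraries left out.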

Additional observations from a re-analysis of the deposited data

Results flagged for a closer look

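Across the 34 members and 3 groups of 4 mice, 102 sets of values were searched for a mouse far from the other 3, and 9 held one; chance alone gives about 1 in 20. In 4 of the 9 the mouse was control 1, above the other controls: Cs at 358.3 CPM, Hadh at 78.73 CPM, Acaa2 at 62.11 CPM and Ppargc1a at 34.98 CPM. In 2 it was control 2, below the other controls: Pdk4 at 87.22 CPM and Suclg2 at 3.94 CPM. The remaining 3 were Pdk2 in anti-SIRPa 4 at 239.5 CPM, below its group, Acads in naive 4 at 39.24 CPM, above its group, and Decr1 in anti-SIRPa 3 at 38.41 CPM, above its group.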

How the results depend on the processing

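The count of members lower in arthritis was 6. It was 7 with DESeq2 size factors, with upper-quartile size factors, with limma-voom or with a filter of 1 CPM in 4 libraries, 6 without a low-count filter, 4 without robust dispersion, 14 with DESeq2, 1 with the compared groups alone, 0 with size factors from the muscle list, 0 with the muscle list as covariate, 1 without naive 4 and anti-SIRPa 2 (the libraries low in epidermal genes) and 0 without controls 2 and 4. Leaving out 1 mouse at a time gave 1 to 25. The count higher with anti-SIRPa was 1, and it was 4 with DESeq2, 1 with DESeq2 size factors and both other filters, and 0 with upper-quartile size factors, limma-voom, no robust dispersion, the compared groups alone, both muscle-list settings and both pairs of libraries left out; leaving out 1 mouse gave 0 to 23. With a replicate block the counts were 3 and 0, and the replicate numbers share nothing in the labels. Deviations of log2 CPM from each gene's group mean were correlated between same-numbered mice over all tested genes. The values were 0.008 to 0.21 between control and naive, -0.15 to 0.112 between anti-SIRPa and control, and -0.813 to -0.08 between anti-SIRPa and naive. Against naive the count for anti-SIRPa was 0 in every setting run. None of the 6 members lower in arthritis, nor Dlat in the second comparison, changed sign in any setting run. Over all genes, limma-voom called 486 higher and 677 lower in arthritis against 979 and 742 with edgeR. Without control 1 the counts were 2507 and 2187. DESeq2 called 1536 and 1369, the compared groups alone 223 and 212, muscle size factors 865 and 64, and the muscle covariate 23 and 20. With anti-SIRPa relative to control, DESeq2 called 913 genes higher and 979 lower of 15698, against 265 and 283 of 16674 with edgeR. In the anti-SIRPa comparison 0 genes were called with the compared groups alone, the muscle covariate or either pair of libraries left out. In these settings the member count of 0 could not have been otherwise. The cause of these shifts was not tested. Depth limits Hadhb, with 356 counts in all.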
